A study of Mus musculus with 8 samples.

Results

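The set described here comprises 9 named long noncoding RNAs, Malat1, Neat1, Miat, Gas5, Snhg1, Snhg3, Snhg11, Dleu2 and Pvt1, followed probe by probe on one-colour Agilent arrays of mouse cortex. A probe belonged to the set when the array files gave it 1 of these 9 names and did not mark it as a control. The rule used no measured value. It found 8 of the 9 genes, of 34787 names on the array, with 15 probes among the 55655 analysed, and no probe carried the name Miat, which was therefore not analysed here. Malat1, Neat1, Snhg1 and Snhg3 had 1 probe each, Snhg11 had 2, and Gas5, Dleu2 and Pvt1 had 3 each. Every one of the 15 probes was a single spot on each array.

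Cortical RNA came from 8 male pups of the inbred strain C57BL/6NCr at postnatal day 1.5, with 1 pup per array, 4 labelled control and 4 labelled ischemia. The pregnant mothers of the ischemia group had their uterine arteries clipped shut for 14 min under anesthesia at E16.5 (an embryonic day), so the arrays show the cortex some days after that event. The labels name no allele or other agent in either group, do not say whether control mothers had an operation, and do not say which pups were littermates. The p-values set the group difference against the spread between pups. Had the pups of a group shared a mother, a litter effect could not be told apart from the group difference. All 8 arrays lay on 1 slide with the control arrays in one row and the ischemia arrays in the other, so array row and group cannot be told apart.

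Long noncoding RNAs are transcripts that are not read into a long protein. Malat1 and Neat1 are neighbouring nuclear RNAs: Malat1 gathers in nuclear speckles, which hold splicing factors, and Neat1 forms the core around which paraspeckle proteins assemble. Gas5, Snhg1 and Snhg3 are host transcripts of small nucleolar RNAs, short RNAs that guide the modification or processing of ribosomal RNA. The small RNAs are released from the introns, while the spliced exons of Gas5 and Snhg1 are known targets of nonsense-mediated decay, a pathway tied to translation. Snhg11 is a host transcript that is abundant in neurons. Dleu2 carries the microRNAs miR-15a and miR-16-1 in an intron, and Pvt1 is the noncoding neighbour of the Myc gene.

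The probes are 60 bases long and each reads a small window of its transcript, so the sequences below show what was measured for the genes on which the comparisons turn. Coordinates are those of the array files, in build mm9, and the strand is that of the transcript the probe was designed on. Sequences are written 5′ to 3′, with the polyadenylation hexamers AATAAA and ATTAAA in capitals wherever they occur. The files name the gene and transcript of each probe; whether a probe lies in an exon was not analysed here.
Malat1, A_55_P2021187, chr19:5795713-5795772, minus strand: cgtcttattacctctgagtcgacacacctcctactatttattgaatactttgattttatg
Neat1, A_51_P234692, chr19:5842564-5842623, minus strand: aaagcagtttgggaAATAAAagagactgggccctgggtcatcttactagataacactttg
Gas5, A_66_P134809, chr1:162968608-162968667, plus strand: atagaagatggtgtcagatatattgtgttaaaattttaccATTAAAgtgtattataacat
Snhg1, A_55_P2117710, chr19:8798913-8798972, plus strand: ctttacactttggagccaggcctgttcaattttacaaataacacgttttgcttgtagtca
Snhg11, A_51_P267933, chr2:158211554-158211613, plus strand: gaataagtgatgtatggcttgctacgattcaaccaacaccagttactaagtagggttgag
Snhg11, A_55_P2047809, chr2:158206508-158206567, plus strand: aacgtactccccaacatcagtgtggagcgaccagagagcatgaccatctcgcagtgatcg
Dleu2, A_55_P2120931, chr14:62301101-62301160, minus strand: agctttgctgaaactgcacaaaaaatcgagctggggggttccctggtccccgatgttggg
Pvt1, A_55_P2051254, chr15:62081020-62081079, plus strand: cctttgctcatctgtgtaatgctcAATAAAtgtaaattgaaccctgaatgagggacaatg
Pvt1, A_55_P2155654, chr15:62082471-62082530, plus strand: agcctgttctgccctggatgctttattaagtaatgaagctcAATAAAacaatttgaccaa

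AATAAA or ATTAAA stood on the printed strand of 4 of the 15 probes, namely the Neat1 probe, the Gas5 probe shown and both Pvt1 probes shown. That is 26.7%, beside 13.7% of all 55655 probes. On the other strand the hexamers were found in 2 of the 15 probes, or 13.3%, beside 6.14% of all probes. These shares describe the letters in the probe windows only.

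Levels are given as log2 of the processed signal relative to the 75th percentile of the same array, so that 0 is the level of a moderately bright probe. Binding differs from probe to probe, so levels are compared between arrays and never between probes. A probe was tested when 4 or more of the 8 arrays gave a signal well above background. Of the 15 probes, 12 met this, at least 1 for each of the 8 genes, and 11 of the 12 were well above background on all 8 arrays.

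None of the 12 tested probes differed between ischemia and control at an adjusted p under 0.05 (limma with Benjamini-Hochberg adjustment over all 27131 tested probes), where 1 probe of 27131, or 0.00369%, passed on the whole array. The adjusted p-values of the 12 probes ran from 0.465 to 0.979. Before adjustment 4 of the 12 had a p under 0.05, the Snhg1 probe and 1 Snhg11 probe with higher and both Pvt1 probes with lower values in ischemia, beside 9.75% of all tested probes. In 0 of the 12 were all ischemia arrays on one side of all control arrays, beside 5.96% of all tested probes. The 4 probes belong to 3 genes and were read on the same 8 pups, so no more is read from this share.

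The mean difference between the groups was positive for 8 of the 12 probes and negative for 4, with a median of 0.04 on the log2 scale beside -0.02 over all tested probes. The direction of some of these differences depended on the processing. With another background correction (normexp) 4 of the 12 were positive and 8 negative, and without scaling between arrays 10 were positive and 2 negative. The differences ran from -0.31 for a Pvt1 probe to 0.51 for a Snhg11 probe, and their median standard error was 0.12.

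**Figure D1:**
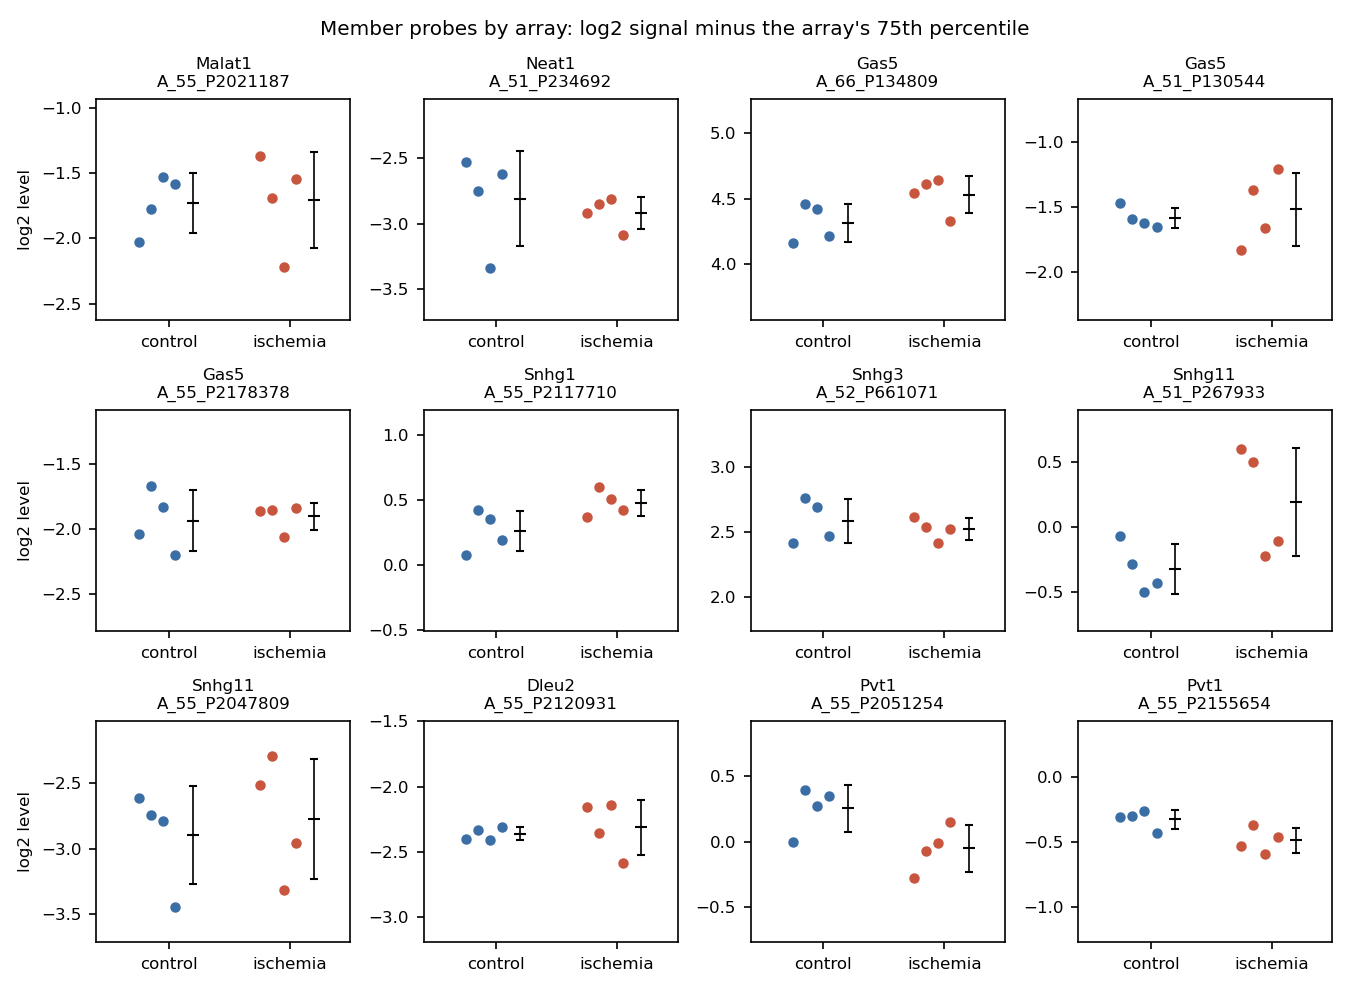
Log2 level of the 12 tested probes on each array (y axis, relative to the array's 75th percentile; every panel spans the same height), with control arrays in blue and ischemia arrays in red, and the mean ± SD of 4 arrays in black. Control and ischemia points overlap in every panel; the means lie farthest apart for Snhg11 A_51_P267933, and 3 of 4 ischemia arrays lie beyond every control for Gas5 A_66_P134809, Snhg1 and both Pvt1 probes.

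**Figure D2:**
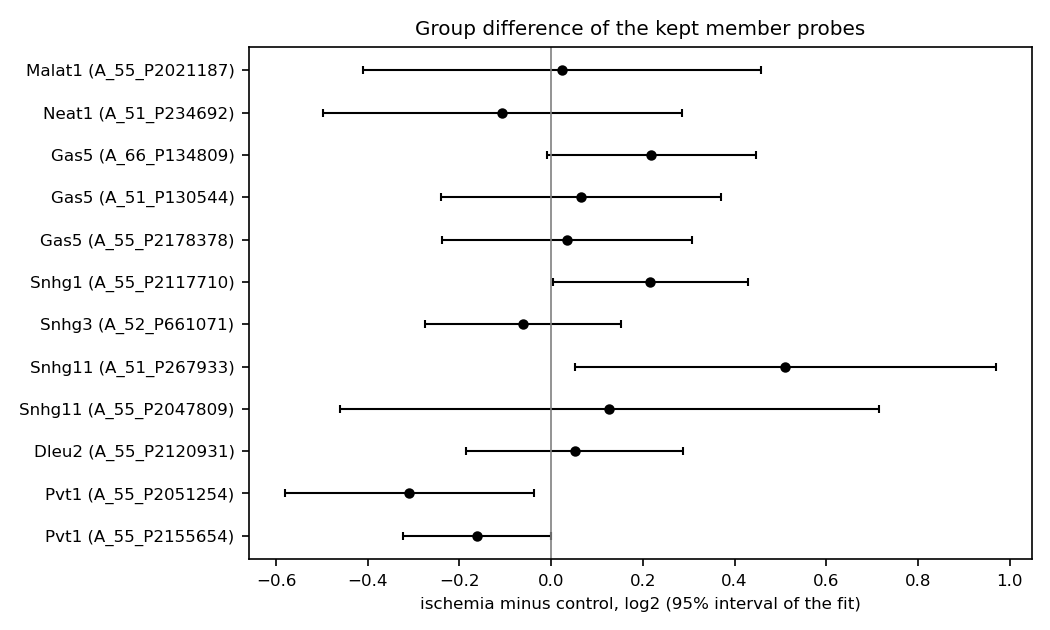
Difference of the means, ischemia minus control, on the log2 scale (x axis) for the 12 tested probes (y axis), with the 95% interval of the limma fit. The intervals of Snhg1, Snhg11 A_51_P267933 and both Pvt1 probes lie on one side of 0 before any adjustment for the number of probes tested.

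Of the nuclear RNAs, Malat1 had nearly equal means in both groups and a wide spread within them. Its probe read -2.03, -1.77, -1.53 and -1.58 in control replicates 1 to 4 and -1.37, -1.69, -2.22 and -1.54 in ischemia replicates 1 to 4. The ischemia arrays held both the highest value, in replicate 1, and the lowest, in replicate 3, and the spread within each group exceeded the difference between them. The means differed by 0.02 (SE 0.19, 95% interval -0.41 to 0.46, limma adjusted p = 0.979). A change of more than about 1.37-fold up or 0.753-fold down lay outside the interval of this 1 probe.

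The array carries further probes of this transcript under other names, among them one, named NEAT2 after an older name of Malat1, whose sequence is identical to the Malat1 probe printed above. These probes were looked up after the values had been seen. The identical probe differed by 0.18 between the groups, against 0.02 for the Malat1 probe, and the gap between them on the same array ran from -0.57 to 0.22 with an SD of 0.30. The 3 other tested probes on the same strand differed by 0.00, 0.06 and -0.13. Between them the 5 probes of one RNA end spanned -0.13 to 0.18, and none was called. The widest 95% interval, that of A_30_P01028538, ran from 0.669-fold to 1.505-fold.

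Neat1, the paraspeckle RNA, was close to the detection limit. Its probe was well above background on 3 of 4 control and 4 of 4 ischemia arrays. It read -2.53, -2.75, -3.34 and -2.62 in the controls and -2.92, -2.85, -2.81 and -3.09 in ischemia, where the ischemia values lay inside the control range. The difference was -0.11 (SE 0.17, limma adjusted p = 0.885). Its size rested on single arrays: without control replicate 3, which read lowest, it was -0.28 (SE 0.10, adjusted p = 0.552), without control replicate 1 it was -0.012, and without replicate 4 of the control or the ischemia group it was -0.042 or -0.048. The sign was not the same in the 3 tested probes named NEAT1 on this strand, one of which overlaps the Neat1 probe by 30 bases; those gave 0.06, 0.09 and 0.21, with adjusted p-values of 0.886 or more.

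How far a difference from a single spot can be trusted was measured on pairs of probes with identical sequence. The array holds 37 such pairs of single-spot probes that were both tested, and the gap between partners, which would be constant if spots measured without error, had a median SD of 0.12 over the 8 arrays. It depended on brightness: the median SD was 0.46 for pairs with a mean level under -2, 0.20 between -2 and 0, 0.08 between 0 and 2 and 0.06 above 2. The difference between ischemia and control disagreed within a pair by a median of 0.06, and by 0.40 at the 90th percentile. Malat1 and Dleu2 sit in the dim part of this range and their pairs had SDs of 0.30 and 0.29, whereas the Pvt1 pair had an SD of 0.10.

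**Figure D3:**
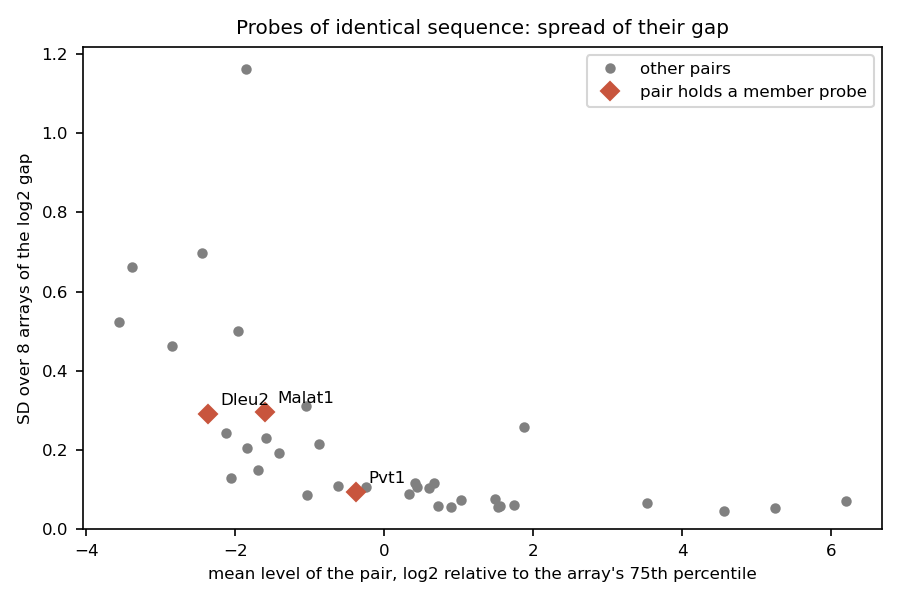
SD over the 8 arrays of the log2 gap between 2 probes of identical sequence (y axis) against the mean level of the pair (x axis, log2 relative to the array's 75th percentile), for the 37 pairs; red diamonds are the pairs that hold a Malat1, Dleu2 or Pvt1 probe. The spread is largest among dim pairs, and the Malat1 and Dleu2 pairs lie near 0.3.

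Among the snoRNA hosts, Gas5 had a bright probe, A_66_P134809, with processed signals from 5607 to 8467 units. It read 4.16, 4.46, 4.42 and 4.21 in the controls and 4.54, 4.61, 4.64 and 4.33 in ischemia. Ischemia replicates 1, 2 and 3 lay above every control, and replicate 4 lay among the controls. The mean was 4.31 ± 0.15 (SD, n = 4) in control and 4.53 ± 0.14 in ischemia, a difference of 0.22 (SE 0.10, 95% interval -0.01 to 0.45) or 1.16-fold, which did not pass the test (limma adjusted p = 0.532).

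The other Gas5 probes lay nearer the background, with processed signals down to 75.8 units. A_51_P130544, at chr1:162966369-162966428, read -1.47, -1.59, -1.62 and -1.65 in the controls and -1.83, -1.37, -1.66 and -1.21 in ischemia. A_55_P2178378, at chr1:162967350-162967409, read -2.04, -1.67, -1.83 and -2.20 in the controls and -1.86, -1.85, -2.06 and -1.84 in ischemia. Ischemia arrays lay on both sides of the controls for the former and within their range for the latter. The differences were 0.07 (SE 0.13) and 0.03 (SE 0.12). Whether the probes of Gas5 disagree was tested on the gap between them on each array. The 70 ways to assign 4 of 8 arrays to ischemia gave an exact two-sided permutation p, which cannot go below 0.0286. The bright probe exceeded the other probes in its group difference by 0.15 (exact p = 0.514) and 0.18 (exact p = 0.229), and the 2 dim probes differed by 0.03 (exact p = 0.886). No disagreement was shown at this number of arrays.

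Snhg1, whose introns carry a cluster of small nucleolar RNAs, followed the same order of arrays as Gas5 in the controls. It read 0.08, 0.42, 0.35 and 0.19 in the controls and 0.37, 0.60, 0.51 and 0.42 in ischemia. Ischemia replicates 2, 3 and 4 lay above every control, replicate 4 by less than the last printed digit, and replicate 1 lay among the controls. The difference was 0.22 (SE 0.09, 95% interval 0.00 to 0.43), or 1.16-fold, with an unadjusted limma p of 0.0470 and an adjusted p of 0.505.

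Snhg3, another snoRNA host, did not share that difference. It read 2.41, 2.76, 2.69 and 2.47 in the controls and 2.61, 2.54, 2.41 and 2.52 in ischemia, so that all ischemia values lay inside the control range. The difference was -0.06 (SE 0.09, 95% interval -0.28 to 0.15, limma adjusted p = 0.876).

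In the control group the 3 hosts Gas5, Snhg1 and Snhg3 stood in one order: replicates 2 and 3 were above and replicates 1 and 4 below the group mean for each. Control replicate 2 lay 0.15, 0.16 and 0.18 above the mean of its group for Gas5, Snhg1 and Snhg3, and control replicate 1 lay at -0.15, -0.185 and -0.17. In ischemia the order was not shared, with Gas5 lowest in replicate 4, Snhg1 in replicate 1 and Snhg3 in replicate 3. This pattern was noticed in the data and was not tested. The spread between control pups was as large as the difference between the groups for each of these genes.

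**Figure D4:**
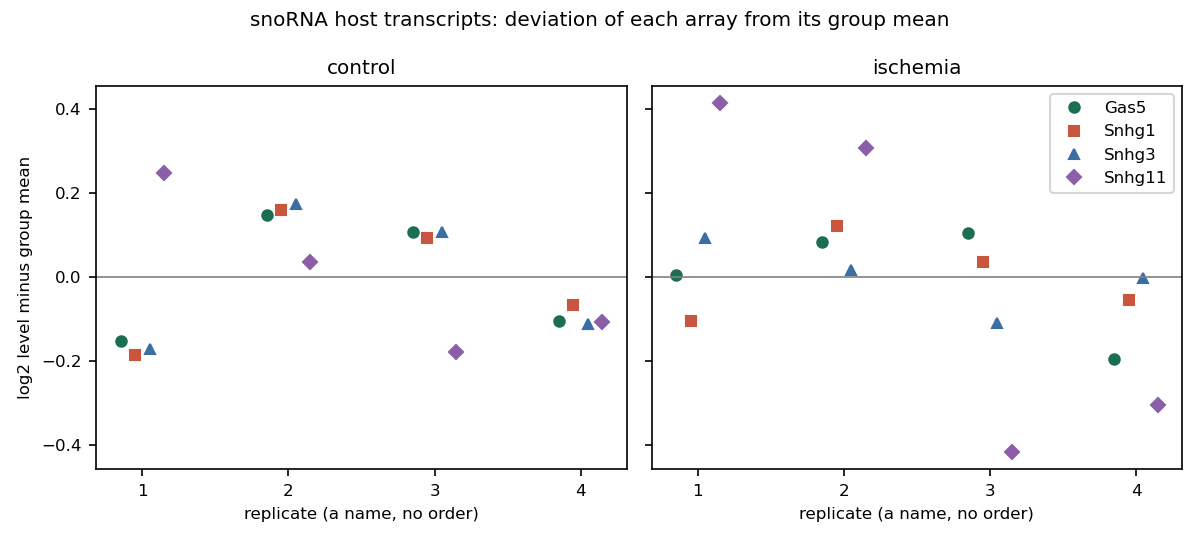
Log2 level of the snoRNA hosts Gas5 (A_66_P134809), Snhg1, Snhg3 and Snhg11 (A_51_P267933) on each array minus the mean of its own group (y axis), for the 4 control arrays on the left and the 4 ischemia arrays on the right (x axis, replicate number, which has no order). In the controls Gas5, Snhg1 and Snhg3 lie together, from -0.185 to 0.175; Snhg11 follows another order and spreads from -0.42 to 0.41 in ischemia.

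Snhg11 showed the widest difference of the set, carried by a pair of arrays. The probe A_51_P267933 read -0.07, -0.28, -0.50 and -0.43 in the controls and 0.60, 0.50, -0.22 and -0.11 in ischemia. Ischemia replicates 1 and 2 lay above every control, while replicates 3 and 4 lay inside the control range. The mean was -0.32 ± 0.19 (SD, n = 4) in control and 0.19 ± 0.42 in ischemia, a difference of 0.51 (SE 0.20, 95% interval 0.05 to 0.97) or 1.43-fold, with an unadjusted limma p of 0.0334 and an adjusted p of 0.473. Without ischemia replicate 1 the difference was 0.37, and without ischemia replicate 2 it was 0.41.

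The second Snhg11 probe, A_55_P2047809, read -2.61, -2.74, -2.79 and -3.45 in the controls and -2.51, -2.29, -3.32 and -2.96 in ischemia. Replicates 1 and 2 were again the highest of the ischemia arrays and lay above every control. Its difference was 0.13 (SE 0.26, limma adjusted p = 0.909). The gap between the probes differed between the groups by 0.38 (exact permutation p = 0.0857, adjusted p = 0.429 over the 5 probe pairs compared). With 5 pairs adjusted together, 1 pair alone could not pass even at the smallest exact p of 0.0286, so the adjusted value does not show whether the probes differ.

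The same pair of ischemia arrays stood highest of its group in the means of the oligodendrocyte, endothelial, microglial and blood cell marker lists, and not in the neuronal, astrocyte, choroid plexus or meningeal lists. Relative to the control mean, the 9 oligodendrocyte lineage markers lay at 0.31 and 0.21 in ischemia replicates 1 and 2 and at -0.04 and 0.02 in replicates 3 and 4. The 8 endothelial markers lay at 0.30 and 0.47 in replicates 1 and 2 and at 0.15 and 0.10 in the others. Replicate 2 owed part of its value to 1 gene, Pecam1, which read -0.42 there and from -2.68 to -2.14 on the other 7 arrays. The 8 microglial markers lay at 0.155, 0.175, 0.047 and 0.134 in ischemia replicates 1 to 4, and the 6 blood cell markers at -0.25, 0.02, -0.53 and -0.82. The 9 neuronal markers lay at -0.18 and -0.06 in replicates 1 and 2 and at 0.00 and -0.01 in replicates 3 and 4. The 4 choroid plexus markers lay at 0.085, -0.34, 0.37 and 3.58 and the 8 meningeal markers at 1.86, -0.25, 0.67 and 0.985 in ischemia replicates 1 to 4. The part of these lists in the Snhg11 values was not tested. In tissue RNA, fewer cells of a type and less RNA per cell cannot be told apart.

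Dleu2, the host of miR-15a and miR-16-1, was measured by 1 of its 3 probes. A_55_P2120931 read -2.40, -2.33, -2.41 and -2.31 in the controls and -2.16, -2.36, -2.14 and -2.59 in ischemia. The controls lay close together (SD 0.05, n = 4), whereas 2 ischemia arrays were above and 1 was below all of them. The difference was 0.05 (SE 0.10, limma adjusted p = 0.909). A probe of identical sequence under another name gave -0.29 (SE 0.16, adjusted p = 0.593), with a gap between the pair from -0.45 to 0.37 on single arrays. The narrow control spread of the first probe was therefore not found in its copy, where the controls read -1.95, -2.50, -2.06 and -2.48. Of 13 probes of features named by position on the Dleu2 strand, looked up after the values had been seen and this copy among them, 5 were tested; all 5 were lower in ischemia, by differences of -0.53 to -0.02, and 0 were called. The lowest, A_30_P01025495, was well above background on 3 of 4 control and 1 of 4 ischemia arrays. This probe just met the filter, mainly through the controls, which favours a lower ischemia value, so its difference is not read as support. It read -3.15, -3.55, -2.75 and -3.22 in the controls and -3.68, -3.27, -4.12 and -3.71 in ischemia, where replicates 1, 3 and 4 lay below every control (SE 0.21, limma adjusted p = 0.474). The sign thus differed even between the probe named Dleu2 and its identical copy, and the named probe itself turned to -0.011 with normexp. No difference between parts of this locus is read from the signs. Of all 27131 tested probes 14969 were lower in ischemia.

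The remaining Dleu2 probes, A_55_P2200029 at chr14:62237277-62237336 and A_55_P2200034 at chr14:62247206-62247265, were well above background on 0 of 8 arrays. Their signals ran from 13.7 to 25.8 and from 5.81 to 15.97 units, and they allow no statement on a difference. The microRNAs themselves were not analysed here.

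Both tested Pvt1 probes had lower means in ischemia, and of the 4 negative differences in the set the other two were those of Neat1 and Snhg3. A_55_P2051254 read 0.00, 0.40, 0.27 and 0.35 in the controls and -0.28, -0.07, -0.01 and 0.15 in ischemia. Ischemia replicates 1, 2 and 3 lay below every control, and replicate 4 lay above control replicate 1. The mean was 0.26 ± 0.18 (SD, n = 4) in control and -0.05 ± 0.18 in ischemia, a difference of -0.31 (SE 0.12, 95% interval -0.58 to -0.04) or 0.807-fold, with an unadjusted limma p of 0.0299 and an adjusted p of 0.465.

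A_55_P2155654, 1.45 kb further along the strand, read -0.31, -0.30, -0.26 and -0.43 in the controls and -0.53, -0.37, -0.59 and -0.46 in ischemia. Again 3 ischemia arrays lay below every control, here replicates 1, 3 and 4, and replicate 2 lay above control replicate 4. The difference was -0.16 (SE 0.07, 95% interval -0.32 to -0.00), with an unadjusted limma p of 0.0487 and an adjusted p of 0.509. The probes differed from each other by -0.15 in this comparison (exact permutation p = 0.314). The third Pvt1 probe, A_55_P2004381 at chr15:62007459-62007518, was well above background on 0 of 8 arrays.

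Probes that the files name by position, without a gene symbol, also lie on the Pvt1 strand, and were looked up after the values had been seen. They belong to noncoding features whose described span encloses a Pvt1 probe. Of 13 such probes 10 were tested, of which 7 were lower and 3 higher in ischemia and 0 were called. A pair of these probes abuts A_55_P2155654, and with it they cover 180 bases without a break. They are shown because, of the 10 tested, they are the pair whose groups did not overlap, beside 5.96% of all tested probes. The pair was thus picked for this trait, and the trait is not read as a result. Probes named by position were looked up in the spans of the other members as well. There only A_30_P01020117, opposite Snhg3, had groups that did not overlap.
A_30_P01031483, chr15:62082351-62082410, plus strand: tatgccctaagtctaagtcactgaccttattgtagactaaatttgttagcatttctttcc
A_30_P01027654, chr15:62082411-62082470, plus strand: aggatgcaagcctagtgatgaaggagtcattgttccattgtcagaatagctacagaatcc

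A_30_P01031483 read -1.72, -1.49, -1.50 and -1.66 in the controls and -1.92, -1.84, -1.92 and -1.81 in ischemia. The difference was -0.28 (SE 0.07, limma adjusted p = 0.341). A_30_P01027654 read -0.97, -1.0, -0.99 and -0.84 in the controls and -1.31, -1.17, -1.14 and -1.11 in ischemia, a difference of -0.23 (SE 0.07, adjusted p = 0.385). All 4 ischemia arrays lay below all 4 controls for both, as in 3.67% of all tested probes. The copy of A_55_P2155654 under another name gave -0.08 (SE 0.07, adjusted p = 0.741), against -0.16 for the probe itself. These windows lie in one short stretch of one transcript and are measured on the same 8 pups, so they are repeated readings and not independent evidence. The probes 7.58 to 13.4 kb further on gave differences of either sign.

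**Figure D5:**
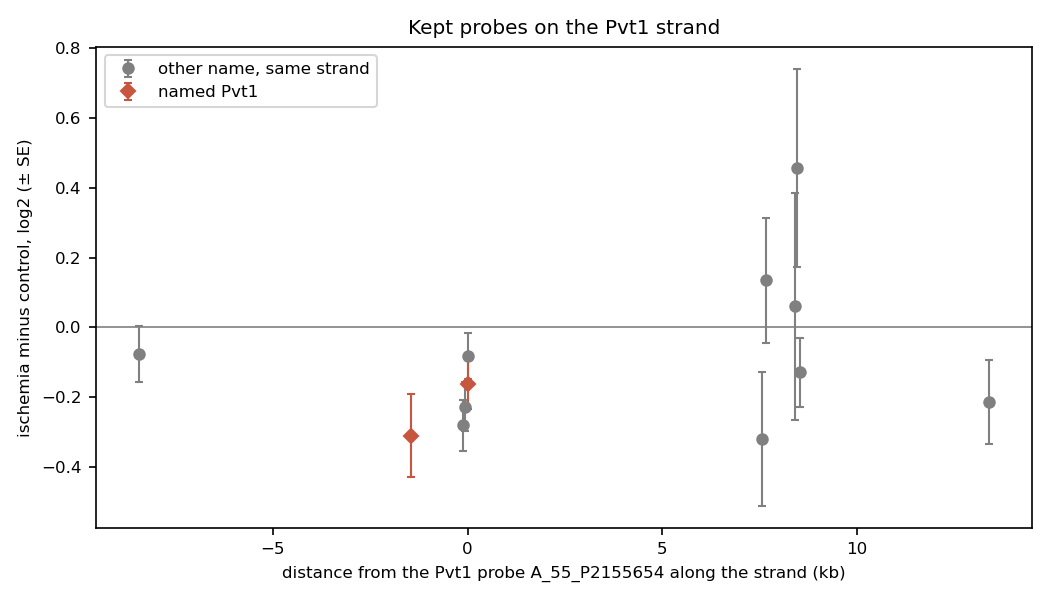
Difference, ischemia minus control, on the log2 scale with its SE (y axis) for the 12 tested probes on the Pvt1 strand, against their distance from the Pvt1 probe A_55_P2155654 in kb (x axis); red diamonds carry the name Pvt1 and grey points another name. The 5 probes at and just before the reference probe lie between -0.31 and -0.08, and the probes further along scatter from -0.32 to 0.46.

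On the strand opposite Snhg3 the files place 2 probes of a feature named by position, again looked up afterwards. The strand is the one written in the array files, and whether it is correct for this feature was not analysed here, so these values are not assigned to a transcript of either strand. A_30_P01020117, at chr4:131908632-131908691, read -2.31, -1.85, -2.08 and -1.93 in the controls and -3.17, -3.03, -2.62 and -2.37 in ischemia. All ischemia arrays lay below all controls, as in 3.67% of all tested probes. The difference was -0.75 (SE 0.18, limma adjusted p = 0.322). The bright probe A_30_P01022304 of the same feature read 5.33, 5.27, 5.49 and 5.42 in the controls and 4.80, 4.40, 4.50 and 5.38 in ischemia, where replicates 1 to 3 lay below every control. Its difference was -0.61 (SE 0.20, adjusted p = 0.413). Neither passed, and the 1 tested probe on the Snhg3 strand of this span gave 0.06 (SE 0.59).

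Genes next to the members were read from a RefSeq gene table of assembly GRCm38.p6, used for gene order only. Wdr74, a neighbour of Snhg1 whose protein acts in ribosome assembly, differed by 0.10 (SE 0.06, limma adjusted p = 0.625), with all 4 ischemia arrays above all controls, as in 2.29% of tested probes. On the other side of Snhg1 the amino acid transporter subunit Slc3a2 differed by 0.05. Myc, the transcription factor gene beside Pvt1, differed by 0.02 (SE 0.13, adjusted p = 0.972). Neighbours of the others gave 0.04 for Frmd8 beside Malat1 and Neat1, -0.06 for Rcc1 and 0.04 for Phactr4 beside Snhg3, 0.00 for Snhg17 and 0.07 for Ralgapb beside Snhg11, and -0.13 for Cenpl beside Gas5. Kcnrg, which overlaps Dleu2 and was singled out once its value was known, differed by 0.28 (SE 0.10, adjusted p = 0.443). Its ischemia arrays all lay above all controls, as in 2.29% of tested probes. Trim13, which also overlaps Dleu2, differed by 0.15 (SE 0.11).

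The proteins that work with these RNAs gave no call. Of 22 tested nuclear speckle and paraspeckle proteins 0 passed, 8 were higher and 14 lower, with a median of -0.03. The paraspeckle protein Sfpq differed by -0.22 (SE 0.09, limma adjusted p = 0.475) and the splicing factor Srsf3 by 0.12 (SE 0.07). All 4 ischemia values of Sfpq lay below the controls, as in 3.67% of all tested probes. Of 12 proteins of small nucleolar particles 0 passed, 5 were higher and 7 lower, with a median of -0.03. Both named members bind small nucleolar RNAs: Nhp2l1 differed by -0.19 (SE 0.06, adjusted p = 0.385) and Nhp2 by -0.16 (SE 0.07, adjusted p = 0.489). Nhp2l1 lay below all controls in 4 of 4 ischemia arrays, again as in 3.67% of all tested probes. With normexp the split turned to 12 higher and 10 lower for the speckle list and to 7 and 5 for the small nucleolar list.

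Factors of nonsense-mediated decay, the pathway that degrades spliced Gas5 and Snhg1, had mostly positive differences. Of 12 tested 11 were higher and 1 lower, beside 12162 higher and 14969 lower of all 27131 tested probes. The median was 0.07 beside -0.02 over all tested probes, and 0 passed. The helicase Upf1 differed by 0.15 (SE 0.06, limma adjusted p = 0.468) and the exon junction component Eif4a3 by 0.14 (SE 0.06, adjusted p = 0.515). Both were named for their small p and lay above all controls in 4 of 4 ischemia arrays, as in 2.29% of all tested probes. Of 39 further long noncoding RNAs and host transcripts 18 were on the array and 15 were tested; 10 were higher and 5 lower, 0 passed, and the median was 0.04. The hosts Snhg5 and Snhg7 differed by 0.22 (SE 0.11, adjusted p = 0.569) and 0.21 (SE 0.11, adjusted p = 0.574). Snhg12, singled out once its value was known, differed by 0.25 (SE 0.14, adjusted p = 0.598).

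For each member the genes with the most similar pattern were ranked over the 8 arrays by Pearson's r after the mean of each group had been subtracted, among 14324 named genes, and genes among the first 2 are given as a description. With so many genes and 8 arrays that share a slide, high values are found for any probe. They were Rasgrp2 (0.989) and Kndc1 (0.986) for Malat1, Zfp664 (0.967) and Btg1c (0.959) for Neat1, Ovgp1 (0.955) and Cops9 (0.954) for Gas5, and Zc3hav1 and Ntf3 (both 0.965) for Snhg1. For Snhg3 they were Sec61b (0.991) and Dlx3 (0.988), for Snhg11 Cldn10 (0.983) and Ppp1r3d (0.963), for Dleu2 Slitrk2 (0.924, the second in rank), and for Pvt1 Rere and Ddx50 (both 0.987). Snhg12 had rank 4 for Gas5 at 0.947 and was picked out after the values were seen. Like Gas5, it was lower in control replicates 1 and 4 and in ischemia replicate 4 than in the other arrays of its group, and read 2.45, 2.83, 2.64 and 2.37 in the controls and 2.88, 2.97, 2.94 and 2.51 in ischemia.

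Markers of the tissue and of its neighbours were compared in the same fit, with 0 calls in any list. Neuronal markers were bright on all 8 arrays, with a summed level (log2 of the sum of the relative signals) of 9.37 to 9.46 in control and 9.27 to 9.42 in ischemia; 8 of 9 were lower and the median was -0.06, although quantile normalization gave 5 lower and 4 higher, and the smallest p-values were those of the neurofilament gene Nefl (-0.32) and of Neurod2 (0.15). Summed levels of the 4 tested choroid plexus markers were 1.66 to 1.79 in control and 1.74 to 7.04 in ischemia, 3 of 4 higher, with Ttr, the transthyretin gene of that epithelium, at 6.95 in ischemia replicate 4 and from -4.15 to -1.75 on the other arrays; Enpp2 differed by 0.28. The 8 meningeal markers summed to 1.72 to 2.22 in control and 1.81 to 4.13 in ischemia, 7 of 8 higher, with Ptgds at 3.22 and 3.66 in ischemia replicates 1 and 4 and Igf2 at a difference of 0.34. Without both of these arrays, a setting chosen after the data were seen, 0 of the 12 member probes were called and the differences were 0.31 for Gas5, 0.29 for Snhg1, 0.46 for Snhg11, -0.30 for Pvt1, -0.11 for Snhg3, 0.11 for Dleu2, -0.02 for Neat1 and -0.23 for Malat1, where the sign turned.

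The other marker lists had these values. The 6 blood cell markers were lower in all 6 cases, with a median of -0.43 and summed levels of 7.99 to 8.87 in control and 7.61 to 8.38 in ischemia; the globin genes Hba-a2 and Hbb-b2 differed by -0.53 and -0.56. Of 8 endothelial markers 6 were higher, summing to 5.49 to 5.63 and 5.37 to 5.67, with Cldn5 at a difference of 0.06. Of the marker lists this one held the smallest unadjusted p-values, and it went both ways. Slco1a4, a transporter gene, was well above background on 0 of 4 control and 4 of 4 ischemia arrays. It passed the filter only through the group where it was high, which favours a small p and separated groups, so neither is read as support. Its ischemia mean lay 1.87-fold above a control mean floored at the lowest detected signal of each array, a bound without sampling error (limma adjusted p = 0.273). Ly6c1 differed by 0.84 (SE 0.19, adjusted p = 0.292). All ischemia arrays lay above all controls for both, as in 2.29% of all tested probes. Kdr, a receptor for vascular endothelial growth factor that the rule for naming genes did not select, was chosen once its value was known. It stood at -0.31 (SE 0.08, limma adjusted p = 0.322) with all ischemia arrays below all controls, as in 3.67% of all tested probes. Of 8 microglial markers 5 were higher, summing to 4.52 to 4.74 and 4.69 to 4.76, with Aif1 at 0.25. The complement genes C1qa and C1qc differed by 0.43 (SE 0.11, limma adjusted p = 0.322) and 0.35 (SE 0.11, adjusted p = 0.413), whereas P2ry12, chosen once its value was known, stood at -0.29 (SE 0.11, adjusted p = 0.455). Of 9 astrocyte and radial glia markers 4 were higher, summing to 8.05 to 8.13 and 7.84 to 8.01, with Nes at -0.23 and Fabp7 at -0.21. Nes and Fabp7 each lay below all controls in 4 of 4 ischemia arrays, as in 3.67% of all tested probes. Of 9 oligodendrocyte lineage markers 9 were higher, summing to 4.72 to 4.78 and 4.73 to 4.996, with Sox10 at 0.24 and Pdgfra at 0.11. Ptgds, Hba-a2, Aif1 and Cldn5, which define 4 of these cell types, gave a signal well above background on each of the 8 arrays, and Ttr did so on 4 of 4 control and 3 of 4 ischemia arrays. Beyond the setting without 2 arrays above, the part of these cells in the member values was not tested.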

How the data were processed

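Per the submitters' processing notes and the file headers, the scanning software was Agilent Feature Extraction 10.7.3.1. From the deposited files the processed signal was taken, an intensity per spot on a linear scale that the software had already corrected for background; the mean signal and local background intensities served an alternative. The authors' value table is a ratio: checked against the files, each deposited column is that signal over a single array-wide constant (267.2 to 346.1), with medians of 0.0836 to 0.1003. Its direction is that of the signal and no centring is seen; none of the sources used here gives the meaning of the constant. Per the labels' protocols, 50 ng of RNA was amplified and labelled with Cy3. Array depth has no counts; the number of arrays limits the precision.

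Control and outlier-flagged spots were left out (134 to 189 outlier spots per array), which dropped 26 of 55681 probes, and spots of a probe were averaged. Log2 signals were set relative to each array's 75th percentile over the averaged probes, and probes well above background on at least 4 of 8 arrays were kept. Taken over all non-control spots instead, outliers included, the 75th percentile was 305.6 to 393.3 units. Between 47.6% and 51.7% of spots per array were well above background, 0 were saturated, and arrays correlated at 0.9897 to 0.9956. Groups were compared probe by probe in R 4.3.3 by limma 3.58.1 (lmFit, then eBayes), adjusted by Benjamini-Hochberg. The fit was also run on simulated data with planted changes larger than any member difference, so that run does not show whether smaller changes would be found. In the lists a gene was read from its kept probe with the highest mean. Of the kept probes, 19475 were named through the RefSeq gene table. The members, the lists and the rules for naming genes were chosen with earlier results of these data known. All members were named, with the 2 genes of smallest p per list, the 2 most similar genes and the nearest genes on each side where measured; other genes, and probes named by position or of identical sequence, were chosen after their values were seen. Some items that these rules name, and some probe sequences, are not reported here.

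Alternatives changed the background correction, the scaling, the filter, the probe rule, the variance model, array weights, the threshold and the values, added the replicate number as a block, or left out arrays.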

Additional observations from a re-analysis of the deposited data

Results flagged for a closer look

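Within groups, 24 sets of 4 values (12 probes, 2 groups) were screened with Dixon's ratio, the gap of an extreme array to its nearest neighbour over the range. In 1 set the ratio passed its 95% limit, where chance would give about 1.2 sets. It was the dim Gas5 probe A_55_P2178378 in ischemia, with replicate 3 low at -2.06 and a ratio of 0.906.

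A probe outside the comparisons, A_30_P01026422, which the files name by position on the strand of Gas5, was well above background on 3 of 4 ischemia and 0 of 4 control arrays. Its values were -3.78, -3.97, -3.64 and -4.13 in the controls and -3.72, -3.03, -3.24 and -3.04 in ischemia, a difference of 0.62 that was not tested, since the probe was kept out by the filter on dim probes. The other probe of that feature, A_30_P01023313, differed by 0.25 and was kept out too.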

How the results depend on the processing

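Under each of the 21 other settings 0 member probes were called, with 1 to 5 at an unadjusted limma p under 0.05. The number of member probes tested was 12, except 11 with the filter requiring all 8 arrays, 8 with 1 probe per gene and 15 with no filter. Over all probes the count of 1 became 0 with normexp, with quantile normalization, with a filter requiring all 8 arrays above background, with no filter, with the replicate block and without both ischemia arrays 1 and 4, became 2 with median scaling and 2 with no scaling, and 20 with a trended and robust variance; with 1 array left out it was 0 to 1. The replicate numbers gave correlations of 0.081, -0.066, 0.275 and 0.361 between same-numbered arrays. Correlations between arrays of different numbers were not set beside these, so whether the numbers mark a pairing was not tested. Without scaling the median of all probes moved to 0.12, with 21309 higher and 5822 lower against 12162 and 14969. Relative to it, Snhg3 (0.071) and Neat1 (0.026) stayed below the median although their sign reversed.

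Each gene was followed here by its probe with the highest mean. By that probe Gas5, Snhg1, Snhg11 and Pvt1 kept their direction under all 20 alternatives. The ranges were 0.17 to 0.35, 0.15 to 0.35, 0.37 to 0.65 and -0.39 to -0.18, with limma adjusted p from 0.278 to 1. Dimmer probes did not all do so. With normexp the bright Gas5 probe differed by 0.26 and its gap to A_55_P2178378 by 0.31, so A_55_P2178378 turned negative. Snhg11 A_51_P267933 differed by 0.413 and its gap to A_55_P2047809 by 0.423, so A_55_P2047809 turned slightly negative. Malat1 reversed with normexp (-0.031), without both ischemia arrays 1 and 4 (-0.23) and without control replicate 1 (-0.076), ischemia replicate 1 (-0.088) or ischemia replicate 4 (-0.032), and with 1 array left out ran from -0.088 to 0.196. Dleu2 reversed with normexp (-0.011) and without ischemia replicates 1 (-0.0003) or 3 (-0.0049), and with 1 array left out ran from -0.0049 to 0.143. The pair of dim Gas5 probes reversed without control replicates 2 (-0.059) or 3 (-0.015) and ischemia replicates 2 (-0.0022) or 4 (-0.051), within -0.059 to 0.151 with 1 array left out. The causes were not tested. Signal near background limits Malat1, Neat1, Dleu2 and the dimmer Gas5 and Snhg11 probes.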

Other observations

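On the strand opposite Pvt1, the probe A_30_P01019658, which the files name by position, read -0.75, -0.39, 2.78 and -0.60 in control replicates 1 to 4 and -0.69, -0.98, 2.18 and -1.07 in ischemia replicates 1 to 4. Replicate 3 of each group thus stood far above the other arrays on this 1 probe, while 3 other tested probes on that strand, at chr15:62050056-62050239, read between -0.50 and 0.11 on all 8 arrays. On the strand opposite Malat1 and Neat1, A_30_P01019048 differed by 0.68 (SE 0.27, limma adjusted p = 0.475) and read -2.76, -3.11, -2.09 and -3.11 in the controls and -1.60, -2.58, -2.25 and -1.91 in ischemia. Both were picked out after their values were seen.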
